A study of Mus musculus with 2 samples.

Results

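The expression of 35 cell cycle genes was examined in lymph node dendritic cells (DCs), with Mki67, which encodes the proliferation marker Ki-67, set against the other 34. The genes were chosen by name, because Mki67 is high in CD301bhi conventional type 2 DCs (cDC2s), to ask whether the genes of DNA replication and mitosis go with it in single cells. All 35 are among the 18049 genes listed for both libraries. The contrast that led to this choice is that of Mki67 between CD301bhi cDC2s and other DCs, so those Mki67 values are given as a description only.

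A dividing cell first copies its DNA in S phase and then condenses, aligns and separates its chromosomes in mitosis. Genes of the replication machinery are switched on together in late G1 by E2F factors, whereas genes of the mitotic spindle, the centromere and the cyclin B kinase are held off until G2 through promoter elements known as the CHR (cell cycle genes homology region) and the CCAAT box. Ki-67 coats the chromosomes of mitotic cells and is widely used to mark cells in cycle, and DCs that have matured and migrated to a lymph node are known for dividing little.

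Single cells were profiled by CITE-seq, which counts 3' mRNA molecules as unique molecular identifiers (UMIs) together with 12 antibody tags. Both libraries held live MHCIIhi CD11c+ B220- cells sorted from lymph nodes of C57BL/6N (B6) mice. One library came from unimmunized mice (naive), and the other from popliteal nodes taken 1 day after ovalbumin plus papain, a protease allergen, had been given in both rear footpads (papain). The protocol label gives popliteal nodes for both libraries and the tissue label skin draining nodes, while the study's methods give pooled skin draining nodes for the naive mice, so that node site and immunization cannot be told apart. The authors' antibody classes were used: LCs (Langerhans cells), cDC1s, and cDC2s of low (CD301blo), intermediate (CD301bint) and high (CD301bhi) CD301b, a lectin encoded by Mgl2. With 1 library per condition there is no replicate, and no test was made. Levels are given in CPM, UMIs of a gene per 1000000 UMIs, both added up over the group's cells, with exact Poisson 95% intervals. Shares of cells carry exact Clopper-Pearson intervals and log2 ratios exact conditional ones, and all intervals and floors cover counting error only.

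A class was given to 3042 of 3471 naive and 7306 of 7596 papain cells, with a median of 13979 and 14945 UMIs. Ccr7, Fscn1 and the MHC class II genes H2-Aa and Cd74 were listed for migratory DCs. They summed to 9729 to 19720 CPM over the 10 groups of library and class. The naive cells without a class had 10830 CPM, within that range, and the papain ones 5182 CPM. The sum alone therefore does not show that cells are migratory. The 4 cDC1 genes reached 589 and 850 CPM in the cDC1s, the 4 cDC2 genes 128 to 226 CPM in the cDC2 classes and the 3 LC genes 153 and 216 CPM in the LCs, and each list was highest in its own class or classes. The cDC1 genes were also present in LCs (374 and 531 CPM) and in the cDC2 classes (167 to 273 CPM), above the LC genes in the LCs, and above the cDC2 genes in naive CD301bhi cells and in all 3 papain cDC2 classes. T cell genes summed to 10.2 to 202 CPM in the classes, against 900 and 2252 CPM in the cells without a class, and B cell genes to 4.59 to 63.3 CPM. In the same groups the genes of NK cells summed to 0 to 19.3 CPM, of plasma cells to 16.9 to 48.1 CPM, of monocytes and macrophages to 3.58 to 77.6 CPM and of plasmacytoid DCs to 153 to 428 CPM. Neither of the 2 neutrophil genes is among the listed genes. The libraries shared 2 cell barcodes.

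RefSeq promoters of the GRCm38.p6 build, from 250 bases before to 50 bases after the start, were found for 30 of the 35 genes (32 promoters; none for Ccna2, Aurkb, Tpx2, Mcm4 and Stmn1). The CHR letters TTTGAA, on either strand, were in 53.1% of these promoters and in 17.9% of all 32851 mouse promoters in the table. The letters CCAAT, on either strand, were in 87.5% against 37.4%, and the E2F letters TTTCCCGC, TTTCGCGC, TTTGCCGC or TTTGGCGC in 15.6% against 2.27%. Among the mitotic genes 13 of 18 held the CHR letters, and among the S phase genes 1 of 10, Mcm2. The E2F letters were in 4 of the 10 S phase genes, Mcm3, Mcm5, Mcm6 and Mcm7, and in 1 of the 18 mitotic genes, Cdk1. A match is a description of the letters, not of a bound site. The promoter of Mki67 is shown beside those of Top2a, Cdk1 and Ccnb2, since all 4 hold CHR and CCAAT letters in this window while only Mki67 was high in CD301bhi cDC2s. All 4 lie on the minus strand and are written in the direction of transcription: Mki67 at chr7:135716330-135716629, Top2a at chr11:99024140-99024439, Cdk1 at chr10:69352863-69353162 and Ccnb2 at chr9:70421505-70421804. Capitals mark the CHR and CCAAT letters in either orientation.
Mki67: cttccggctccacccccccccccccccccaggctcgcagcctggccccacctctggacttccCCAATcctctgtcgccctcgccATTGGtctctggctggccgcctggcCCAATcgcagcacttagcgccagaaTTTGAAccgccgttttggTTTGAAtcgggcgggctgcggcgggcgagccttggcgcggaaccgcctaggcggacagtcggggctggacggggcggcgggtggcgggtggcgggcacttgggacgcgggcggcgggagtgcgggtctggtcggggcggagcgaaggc
Top2a: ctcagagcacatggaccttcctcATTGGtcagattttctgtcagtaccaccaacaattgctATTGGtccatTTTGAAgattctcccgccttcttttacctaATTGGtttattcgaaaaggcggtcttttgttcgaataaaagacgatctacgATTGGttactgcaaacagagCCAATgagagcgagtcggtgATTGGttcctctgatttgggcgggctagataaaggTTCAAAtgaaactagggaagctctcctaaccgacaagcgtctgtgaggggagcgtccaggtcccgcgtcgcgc
Cdk1: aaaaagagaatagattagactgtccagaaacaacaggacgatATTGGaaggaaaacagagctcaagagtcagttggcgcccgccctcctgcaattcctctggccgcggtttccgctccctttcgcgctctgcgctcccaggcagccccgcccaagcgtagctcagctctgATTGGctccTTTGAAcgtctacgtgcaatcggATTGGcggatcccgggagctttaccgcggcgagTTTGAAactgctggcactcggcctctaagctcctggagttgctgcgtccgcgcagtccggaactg
Ccnb2: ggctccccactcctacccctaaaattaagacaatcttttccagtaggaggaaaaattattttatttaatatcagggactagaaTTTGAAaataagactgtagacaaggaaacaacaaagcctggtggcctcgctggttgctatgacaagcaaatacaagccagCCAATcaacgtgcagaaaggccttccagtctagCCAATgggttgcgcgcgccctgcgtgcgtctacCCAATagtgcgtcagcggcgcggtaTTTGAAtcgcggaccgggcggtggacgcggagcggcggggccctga

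In the Mki67 promoter the CHR letters stood at 116 and 98 bases before the start and CCAAT or its complement at 188, 166 and 141 bases before it, counted from the motif's first base. In that of Ccnb2, the partner cyclin of the kinase Cdk1, the CHR letters stood 167 bases before and 4 bases after the start, with 3 CCAAT matches between.

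Mki67 was highest in CD301bhi cDC2s of both libraries. In the naive library it was at 72.3 CPM (67.4 to 77.4) in CD301bhi, 51.2 (46.9 to 55.7) in CD301bint and 45.6 (41.4 to 50.2) in CD301blo cDC2s, 24.5 (21.5 to 27.9) in cDC1s and 15.4 (12.3 to 19.2) in LCs. In the papain library it was at 117 CPM (114 to 120) in CD301bhi, 83.9 (80.6 to 87.3) in CD301bint and 32.0 (29.4 to 34.7) in CD301blo cDC2s, 17.9 (13.5 to 23.3) in cDC1s and 47.5 (44.4 to 50.8) in LCs. The order in the naive library was thus CD301bhi, CD301bint, CD301blo, cDC1 and LC, where the intervals of CD301bint and CD301blo overlapped. Without 7 CD301bint and 11 CD301blo cells that held UMIs of 5 or more mitotic genes, described further on, these classes were at 46.95 and 28.0 CPM. In the papain library LCs lay between CD301bint and CD301blo, and no neighbours in the order had overlapping intervals. A Mki67 UMI was found in 266 of 707 naive CD301bhi cells (37.6%) and in 1598 of 2893 papain CD301bhi cells (55.2%), and the highest count in a cell was 37. In CD301blo cells these shares were 18.7% (123 of 658) and 16.2% (238 of 1470). After thinning every cell to 8392 UMIs, the CD301bhi shares were 29.4% and 42.8% (55 and 137 cells too shallow) and the CD301blo shares 14.8% and 13.3% (87 and 264 too shallow). For comparison, cells without a class that held a UMI of the T cell genes Cd3e or Trac had a Mki67 UMI in 14 of 237 naive (5.91%) and 4 of 241 papain cells (1.66%), at median depths of 7626 and 6980 UMIs against 15170 and 16180 in the CD301bhi cells. They are no pure measure of background, since 2 of the 237 naive ones held UMIs of 5 or more mitotic genes.

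**Figure D1:**
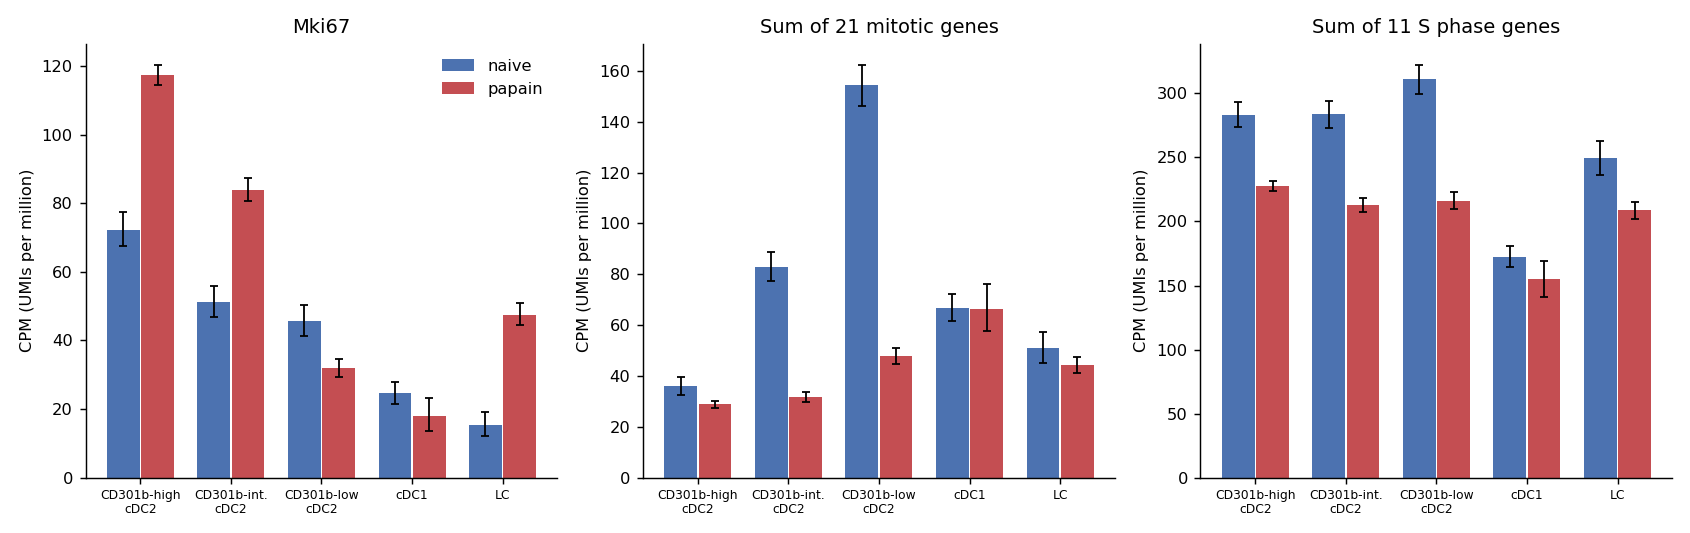
Levels (CPM, linear axes from 0) of Mki67, of the sum of the 21 mitotic genes and of the sum of the 11 S phase genes in the 5 antibody classes of the naive and papain libraries; bars are the level over all cells of a class and whiskers exact Poisson 95% intervals, with 1 library per condition. Mki67 is highest in papain CD301b-high cDC2s at 117 CPM, where the mitotic sum is 28.8 CPM, and the mitotic sum is highest in naive CD301b-low cDC2s at 154 CPM (58.2 CPM without the 11 cells of 5 or more mitotic genes).

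The sum of the 21 mitotic genes other than Mki67 did not follow the order of Mki67, and it depended on a few cells. Their sum was 35.9 CPM (32.5 to 39.6) in naive and 28.8 CPM (27.3 to 30.3) in papain CD301bhi cDC2s, the lowest values of each library when all cells were used. It was 82.9 CPM in naive CD301bint, 154 CPM (146 to 163) in naive CD301blo, 66.8 CPM in naive cDC1s and 50.8 CPM in naive LCs. The papain sums were 31.6 CPM (29.6 to 33.7) in CD301bint, an interval that overlapped that of CD301bhi cells, 47.9 CPM in CD301blo, 66.4 CPM in cDC1s and 44.1 CPM in LCs. Without 25 naive and 7 papain cells that held UMIs of 5 or more mitotic genes, described further on, the naive sums were 29.9, 36.3, 58.2, 44.3 and 50.8 CPM from CD301bhi to LCs, and the papain sums were 28.8, 31.6, 34.4, 26.5 and 44.1 CPM. Naive CD301bhi cells were then still the lowest naive class, whereas papain cDC1s, 2 cells fewer, lay below papain CD301bhi cells. Of the 9 mitotic genes that reached 2 CPM over the 10 groups, 7 had their highest level in naive CD301blo cDC2s, as did 15.2% of the 11442 genes of any kind that reached it. Single levels were low: Plk1, the polo kinase of mitosis, rested on 3 UMIs or fewer in 7 of the 10 groups.

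Top2a, the topoisomerase that untangles chromosomes before they part, was at 6.39 CPM in naive CD301bhi, 12.6 in CD301bint, 24.4 in CD301blo, 11.9 in cDC1s and 13 in LCs. The papain levels of Top2a were 5.0, 5.75, 9.20, 10.1 and 7.58 CPM in the same order of classes. The interval of papain CD301bhi cells (4.41 to 5.66 CPM) overlapped that of papain CD301bint cells (4.92 to 6.69). The cells without a class that held Cd3e or Trac had 7.75 (naive) and 6.41 CPM (papain), and the Top2a levels of CD301bhi cells lay no higher than these. As 2 of the 237 naive cells of this kind held 5 or more mitotic genes, their level is no pure background. Cdk1, the kinase that drives entry into mitosis, was at 1.84, 3.0, 5.85, 7.06 and 4.33 CPM in the naive classes and at 1.07, 1.60, 1.88, 10.7 and 2.40 CPM in the papain classes. Its cyclin Ccnb2 was at 0.525, 3.0, 3.90, 1.16 and 0.188 CPM in the naive classes and at most 0.388 CPM in the papain classes other than cDC1s, which had 2.93 CPM. Birc5 (survivin), part of the complex that corrects chromosome attachment, was at 0.963, 5.42, 12.8, 2.84 and 0.564 CPM in the naive classes and at 0.257, 0.374, 1.27, 3.26 and 0.382 CPM in the papain classes. Ube2c, the ubiquitin carrier of the anaphase-promoting complex, was at 0.613, 9.68, 10.2, 4.32 and 0.376 CPM in the naive classes, and its highest papain level was the 10.4 CPM of cDC1s. A single cell held 65 of the 100 Ube2c UMIs of naive CD301bint cells, and another 30 of the 41 of naive cDC1s. Cenpa, the histone H3 variant of centromeres, was at 7.88, 13.3, 31.4, 15.3 and 11.7 CPM in the naive classes and at 3.10, 4.25, 9.09, 6.18 and 13.3 CPM in the papain classes. For each of these genes naive CD301bhi cells lay below naive CD301blo cells.

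For the other mitotic genes the highest level of the 10 groups is given. The kinetochore genes Cenpe and Cenpf reached 4.77 and 5.31 CPM, the spindle checkpoint genes Bub1 and Bub1b 1.41 and 4.44 CPM, and the spindle genes Tpx2, Nusap1 and Kif11 6.50, 11.2 and 4.01 CPM. Kif23 and Prc1, which build the central spindle for cell separation, reached 7.15 and 4.34 CPM, Cdc20, the activator of the anaphase-promoting complex, 3.58 CPM, and the cyclins Ccna2 and Ccnb1 3.58 and 1.84 CPM. Aurkb, the kinase partner of Birc5, reached 3.90 CPM. All of these maxima were in naive CD301blo cDC2s. The centrosome kinase Aurka differed, with 1.30 to 3.20 CPM over the 10 groups and its maximum in naive LCs.

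The S phase genes were more even across the classes. Their sum was 283 CPM in naive CD301bhi, 284 in CD301bint, 311 in CD301blo, 173 in cDC1s and 249 in LCs, and 228, 213, 216, 155 and 209 CPM in the papain classes. Without the cells of 5 or more mitotic genes, described further on, it was 278 CPM in naive CD301bhi and 278 CPM in naive CD301blo cells. Tk1, the thymidine kinase of the nucleotide salvage pathway, was at 115, 102, 102, 53.0 and 89.0 CPM in the naive classes and at 73.3, 69.6, 69.1, 59.2 and 63.5 CPM in the papain classes. Pcna, the sliding clamp of DNA polymerases, was at 76.3, 73.3, 72.3, 36.9 and 70.2 CPM in the naive and at 53.2, 48.9, 47.3, 25.7 and 52.4 CPM in the papain classes. Tk1 and Pcna had their highest level of the 10 groups in naive CD301bhi cDC2s. Mcm3, a subunit of the replicative helicase, was at 32.8, 28.8, 33.6, 18.4 and 21.3 CPM in the naive and at 40.1, 35.1, 30.0, 22.1 and 28.7 CPM in the papain classes, and was the only one of the 34 genes to have its maximum, as Mki67 did, in papain CD301bhi cDC2s. The helicase subunits Mcm2, Mcm5, Mcm6 and Mcm7 and the ribonucleotide reductase subunits Rrm1 and Rrm2 were highest in naive CD301blo cDC2s, with 9.65, 11.4, 21.4, 14.3, 19.9 and 4.77 CPM. Rrm2 was at 113 CPM in the 25 naive cells of 5 or more mitotic genes and at 0.333 CPM in the other naive cells. Mcm4 was highest in naive LCs (13.4 CPM) and Tyms, which makes thymidylate, in papain LCs (10.1 CPM). A Tk1 UMI was present in 7.59% of the naive and 1.25% of the papain cells without a class that held Cd3e or Trac.

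The chromatin protein gene Hmgb2 was at 44.3, 56.1, 88.8, 72.3 and 60.4 CPM in the naive classes from CD301bhi to LCs and at 39.1, 44.6, 53.7, 61.5 and 42.7 CPM in the papain classes. Stmn1, which destabilizes microtubules, was at 9.72, 19.1, 42.4, 10.1 and 10.9 CPM in the naive and at 5.60, 6.8, 12.9, 7.16 and 5.67 CPM in the papain classes. Both were lowest in papain CD301bhi cDC2s and highest in naive CD301blo cDC2s. In the 25 naive cells of 5 or more mitotic genes, 11 of them CD301blo, Hmgb2 was at 659 and Stmn1 at 623 CPM. The other naive cells had 54.5 and 9.36 CPM.

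CD301bhi cDC2s were then set against all other classified DCs of the same library. A gene was counted as higher or lower when its levels differed by at least 1.5-fold, among genes of at least 2 CPM over both groups pooled. A gene that passed only through the group where it was higher is bound to lie on that side, so counts are also given over the genes of at least 2 CPM in each of the groups, written as in both groups. Mki67 was at 72.3 against 36.8 CPM in the naive library (log2 ratio 0.97, 0.84 to 1.10) and at 117 against 57.7 CPM in the papain library (1.03, 0.97 to 1.08). In the naive library 24 of the other 34 genes reached 2 CPM, of which 0 were higher and 13 lower, where 4.25% of all genes tested were higher and 13.4% lower. Of the 18 genes at 2 CPM in both groups, 8 were lower, as were 9.26% of the 11060 such genes of any kind. The median log2 ratio was -0.71 over the 24 and -0.44 over the 18 genes. Of the 6 mitotic genes at 2 CPM in both groups, 4 were lower. Ube2c (log2 ratio -3.49), Birc5 (-2.62), Cenpe (-1.88) and Cdk1 (-1.47) had the lowest ratios but were under 2 CPM in CD301bhi cells and passed only through the other DCs. The lower genes also included Nusap1 (-1.42), Top2a (-1.29), Stmn1 (-1.15) and the S phase genes Rrm2 (-0.91, under 2 CPM in CD301bhi cells), Mcm7 (-0.80) and Tyms (-0.76). The highest ratios were those of Tk1 (0.41), Mcm3 (0.33) and Pcna (0.29), all under 1.5-fold. In papain cells 18 of the 34 reached 2 CPM, of which 0 were higher and 1 lower, Cenpa (-1.37), where 1.46% of all genes tested were higher and 3.91% lower. Of the 17 in both groups 0 were higher and 1 lower, where 1.33% and 2.67% of such genes of any kind were. The median log2 ratio of the 18 was -0.11, against -0.02 over all genes, and it was 0.12 over the 7 genes of at least 10 CPM. The mitotic sum was 35.9 against 92.7 CPM in the naive library (log2 ratio -1.37) and 28.8 against 40.8 CPM in the papain library (-0.50), while the S phase sum was higher in CD301bhi cells of both libraries by less than 1.5-fold, at 283 against 255 CPM in the naive (0.15, 0.09 to 0.21) and 228 against 210 CPM in the papain library (0.12).

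Against CD301blo cDC2s alone, the naive CD301bhi cells had 0 of 28 genes higher and 22 lower, where 5.14% of all genes tested were higher and 15.4% lower. As many as 10 of the 28, such as Prc1 (0.175 against 4.34 CPM) and Kif11 (0.525 against 4.01 CPM), were under 2 CPM in CD301bhi cells and passed only through the CD301blo cells, so that the filter itself set them lower. Of the 18 at 2 CPM in both groups, 12 were lower, as were 12.3% of such genes of any kind. In the papain library 0 of 17 were higher and 3 lower, with 5.0% of all genes higher and 5.91% lower. Without the cells of 5 or more mitotic genes, 0 of 18 naive genes were higher and 8 lower (5.05% and 14.3% of all genes), with mitotic sums of 29.9 against 58.2 CPM, and 0 of 17 papain genes were higher and 1 lower (4.93% and 5.78%). The 13 lower genes of the naive contrast with other DCs rested in part on few cells. Without the 25 naive cells of 5 or more mitotic genes, 18 genes reached 2 CPM, of which 0 were higher and 3 lower. Their median log2 ratio was -0.29, where 4.33% of all genes tested were higher and 13% lower. Of the 16 in both groups 0 were higher and 2 lower, where 4.27% and 8.9% of such genes of any kind were. The mitotic sum was then 29.9 against 46.6 CPM. Leaving out the 7 such papain cells kept 0 of 18 genes higher and 1 lower (1.43% and 3.86% of all genes).

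To ask whether Mki67 went with the other genes in single cells, cells of one class with a Mki67 UMI were set against cells of that class with none. In CD301bhi cDC2s the mitotic sum was 36.4 CPM in Mki67-positive and 35.5 CPM in Mki67-negative naive cells. It was 27.6 CPM in Mki67-positive and 30.7 CPM in Mki67-negative papain CD301bhi cells, and the S phase sum was 222 against 237 CPM. Of 17 genes that reached 2 CPM in papain CD301bhi cells, 0 were higher and 1 was lower in the Mki67-positive cells, Cenpa (log2 ratio -0.62), where 1.7% of all genes tested were higher and 1.83% lower. In naive CD301bhi cells 1 of 18 was higher, Mcm7 (0.70), and 1 lower, Nusap1 (-0.96), which passed only through the Mki67-negative cells, with 4.55% of all genes higher and 9.54% lower. The median log2 ratio was -0.11 in papain and 0.02 in naive CD301bhi cells. Mki67-positive cells were deeper than Mki67-negative ones, with medians of 17430 and 14700 UMIs in the papain CD301bhi cells.

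In naive CD301blo cDC2s the same contrast gave 27 of 31 genes higher and 0 lower, where 9.29% of all genes tested were higher and 11.2% lower. The mitotic sum was 460 CPM in the 123 Mki67-positive and 59.2 CPM in the 535 Mki67-negative cells. Top2a was at 73.1 against 9.23 CPM (log2 ratio 2.99), Ube2c at 40.2 against 0.852 CPM (5.56) and Stmn1 at 133 against 14.4 CPM (3.21). Birc5 had 117 UMIs in the Mki67-positive and 1 in the Mki67-negative cells, and Cenpf 49 and 0. Such genes reached 2 CPM only through the Mki67-positive cells and so had to be higher there. Of the 17 genes at 2 CPM in both groups, 13 were higher, with a median log2 ratio of 1.08 where it was 2.63 over the 31, and 8.10% of such genes of any kind were higher. In the contrasts of naive CD301bint cells and cDC1s that follow, 16 and 17 genes were at 2 CPM in both groups, of which 10 and 12 were higher. Of such genes of any kind 6.0% and 7.66% were higher. Naive CD301bint cells had 20 of 26 genes higher and 0 lower, with 7.18% of all genes higher and 8.86% lower, and a mitotic sum of 186 against 36.3 CPM. Naive cDC1s had 17 of 22 higher and 0 lower, with 7.95% of all genes higher and 16.0% lower, and 164 against 44.9 CPM. Naive LCs, with 32 Mki67-positive cells, had 1 of 21 higher and 8 lower, with 14.7% of all genes higher and 23.5% lower, and 43.6 against 51.8 CPM. Of the 17 genes at 2 CPM in both groups of naive LCs, 1 was higher and 5 were lower. Of such genes of any kind 15.3% were higher and 15.3% lower.

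In the papain library the mitotic sum in CPM was higher in the Mki67-positive cells of CD301blo cDC2s and cDC1s and not in the other classes. Papain CD301blo cells had 8 of 17 genes higher and 0 lower, where 6.12% of all genes tested were higher and 8.81% lower, and a mitotic sum of 103 against 34.2 CPM. Papain cDC1s had 13 of 21 genes higher and 2 lower over 25 Mki67-positive cells, with 19.7% of all genes higher and 22.3% lower. Of the 16 genes at 2 CPM in both groups 8 were higher and 2 lower, where 19.5% and 17.1% of such genes were. The mitotic sum of papain cDC1s was 321 against 26.4 CPM. Papain CD301bint cells had 1 of 18 higher and 1 lower, with 2.53% of all genes higher and 3.81% lower, and 29.7 against 33.3 CPM. Papain LCs had 0 of 19 higher and 2 lower, with 4.93% of all genes higher and 6.33% lower, and 41.0 against 46.3 CPM. Of the 18 in both groups 0 were higher and 1 lower, where 4.33% and 4.55% of such genes were. In the 3 papain classes with the highest Mki67, CD301bhi, CD301bint and LC, the Mki67-positive cells therefore carried no higher mitotic sum than the Mki67-negative cells.

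**Figure D2:**
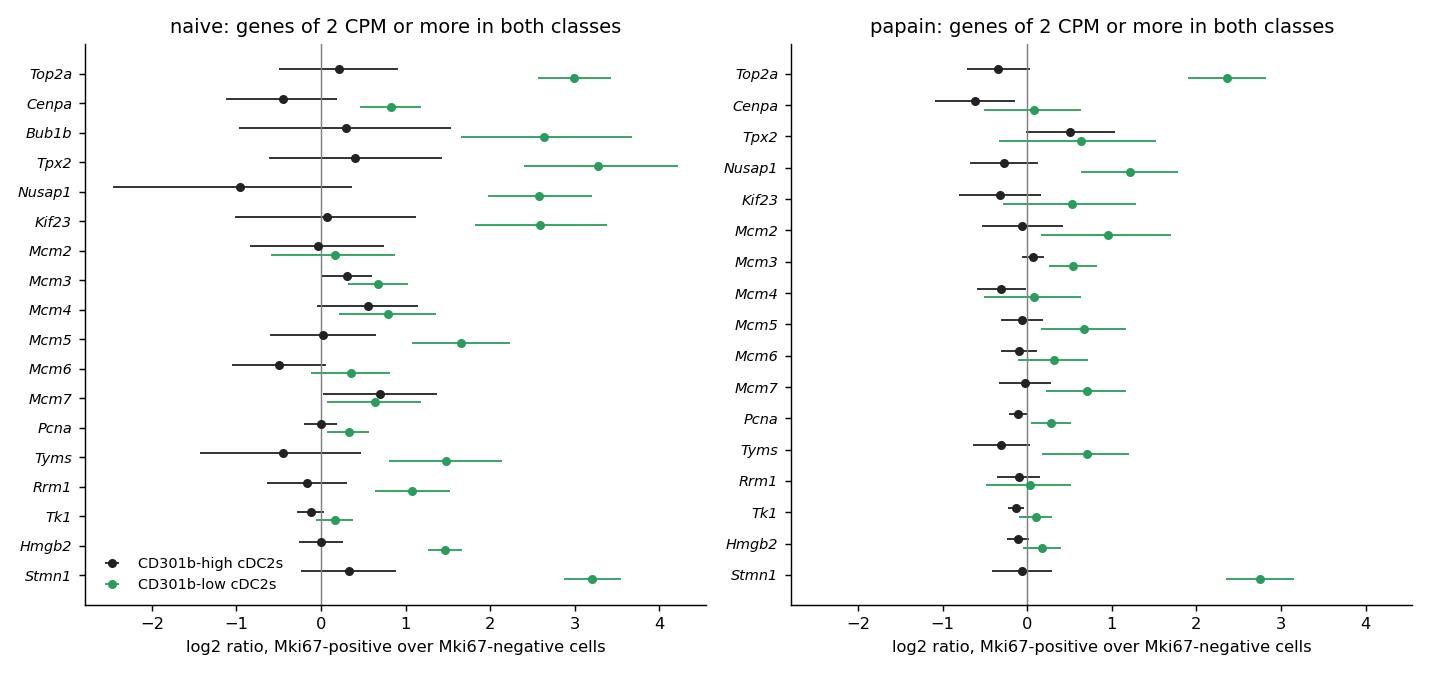
log2 ratio of Mki67-positive over Mki67-negative cells for each gene that reached 2 CPM in both CD301b-high (black) and CD301b-low (green) cDC2s, in the naive and papain libraries; points are ratios of levels over all cells and bars exact conditional 95% intervals. In the naive library Top2a lies at 2.99 and Stmn1 at 3.21 in the CD301b-low cells. The CD301b-high points differ from 0 by less than 1.5-fold, except Mcm7 (higher) and Nusap1 (lower) in the naive and Cenpa (lower) in the papain library.

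The number of Mki67 UMIs in a cell made little difference to the mitotic genes in papain CD301bhi cells. The mitotic sum was 30.7 CPM in the 1295 cells without a Mki67 UMI, 28.1 in the 484 cells with 1, 26.5 in the 315 with 2, 26.6 in the 376 with 3 to 4 and 28.4 CPM (25.2 to 32.0) in the 423 with 5 or more. The S phase sum in these bins was 237, 223, 229, 216 and 222 CPM. Of the papain CD301bhi cells with 5 or more Mki67 UMIs, none held UMIs of more than 3 of the 21 mitotic genes. Among all 2893 papain CD301bhi cells 2 held 4. In naive CD301bhi cells the bins held 35.5, 22.7, 35.2, 17.9 and 71.7 CPM, and the last, of 57 cells, was at 25.5 CPM without 1 cell that held 17 mitotic genes. In naive CD301blo cells the bins held 59.2, 58.9, 47.2, 126 and 1835 CPM (1716 to 1959 for the last, of 19 cells, which was at 112 CPM without 8 cells of 5 or more mitotic genes). In papain CD301blo cells they held 34.2, 40.8, 38.8, 50.2 and 404 CPM, and the last, of 33 cells, was at 15.4 CPM without 4 such cells, below the 34.2 CPM of the Mki67-negative cells. The high mitotic sums of CD301blo cells rich in Mki67 thus rested largely on those few cells. The 112 CPM left in the last naive bin was still above the 59.2 CPM of the Mki67-negative cells.

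**Figure D3:**
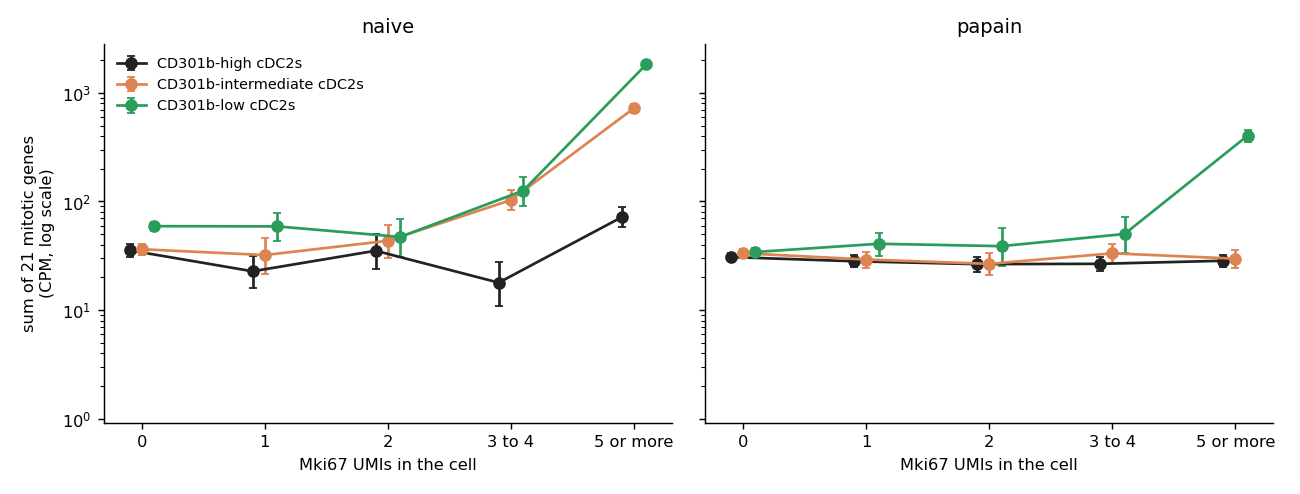
Sum of the 21 mitotic genes (CPM, log axis) in cDC2s grouped by the number of Mki67 UMIs in the cell, for the 3 CD301b classes of the naive and papain libraries; points are levels over all cells of a bin and whiskers exact Poisson 95% intervals. The papain CD301b-high points stay between 26.5 and 30.7 CPM, while the naive CD301b-low points end at 1835 CPM (112 CPM without 8 cells of 5 or more mitotic genes).

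In some classes, such as naive CD301blo cDC2s, the mitotic UMIs were concentrated in few cells. UMIs of 5 or more of the 21 mitotic genes were found in 25 of 3042 naive cells (0.822%, 0.533 to 1.21%) and in 7 of 7306 papain cells (0.0958%, 0.0385 to 0.197%). The gap between the libraries depends on the number of genes asked for: at 3 or more mitotic genes the shares were 2.10% (64 cells) and 1.63% (119 cells). Without cells holding a UMI of a T or B cell marker gene the naive share was 0.271% (6 cells) and the papain share 0.0493% (3 cells), and without the deepest 5% of cells they were 0.415% (12 cells) and 0.0865% (6 cells). Of the naive cells 11 were CD301blo, 7 CD301bint and 2 CD301bhi cDC2s and 5 were cDC1s, with 0 of 440 LCs. Taking 3 cells of the total as the floor for a count of 0, this allows a share of up to 0.682%, and the exact upper limit is 0.835%. Of the papain cells 5 were CD301blo cDC2s and 2 cDC1s. There were none among 2893 papain CD301bhi cells (floor 0.104%, exact upper limit 0.127%), among 1827 CD301bint cells (0.164% and 0.202%) or among 881 LCs (0.341% and 0.418%). The count is a range and not a cell type, and 10 naive and 10 papain cells held 4 mitotic genes, 3 and 0 exactly 5, 5 and 3 from 6 to 10, and 17 and 4 at least 11. Mki67 was detected in 23 of the 25 naive and in 7 of the 7 papain cells, at 409 and 306 CPM, against 40.1 and 82.6 CPM in the remaining cells.

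**Figure D4:**
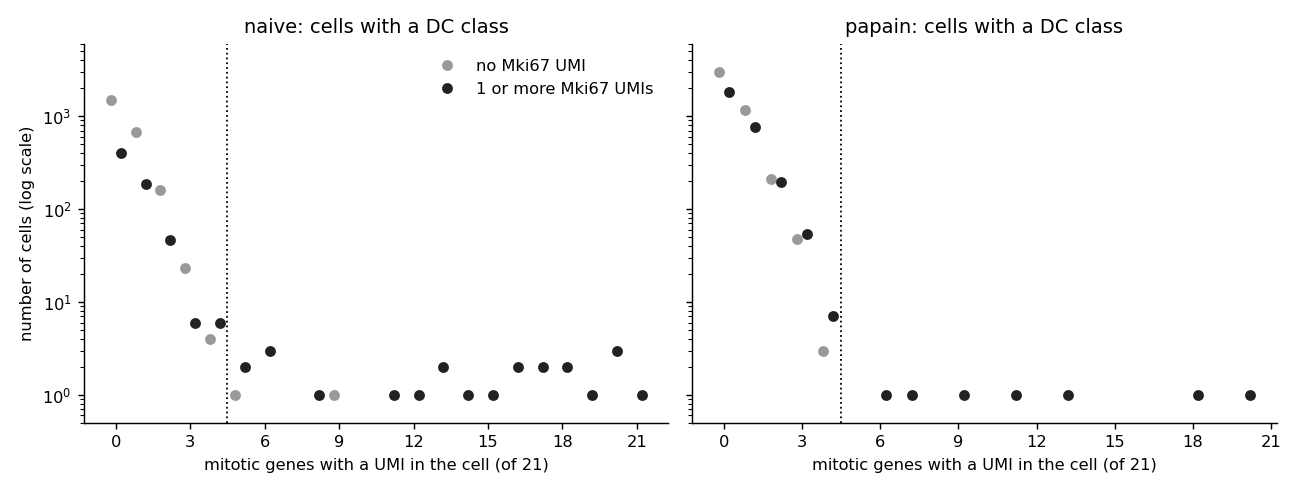
Number of cells with a class (log axis) by the number of the 21 mitotic genes with a UMI in the cell, in the naive and papain libraries, for cells with (black) and without (grey) a Mki67 UMI; empty counts are not drawn and the dotted line parts cells of 5 or more. The naive library has 25 cells and the papain library 7 to the right of the line, all but 2 of them with Mki67.

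These cells held 46.8% of all mitotic UMIs of the naive classes and 13.5% of their Mki67 UMIs, and 8.70% and 0.485% in the papain library. In naive CD301blo cells they held 63.6% of the mitotic and 40.9% of the Mki67 UMIs, whereas in naive CD301bhi cells they held 16.8% and 2.18%. Top2a, one of the genes they were chosen by, was at 366 CPM in the 25 naive cells against 7.92 CPM in the rest. Genes that did not choose them were higher too: Stmn1 was at 623 against 9.36 CPM, Hmgb2 at 659 against 54.5 CPM and Pcna at 282 against 62.6 CPM, while Tk1 was at 140 against 92.9 CPM. Genes of DC maturation also differed. Ccr7, the chemokine receptor that brings DCs to the node, was at 1174 against 3441 CPM in the naive and 1391 against 3212 CPM in the papain library. Fscn1, which bundles actin in mature DCs, was at 560 against 2028 CPM in the naive library and 900 against 2792 CPM in the papain library. The MHC class II genes H2-Aa (7769 against 2787 CPM) and Cd74 (17700 against 7218 CPM) were higher in the naive cells, and likewise in the papain cells, with 6523 against 1428 and 14620 against 4445 CPM. These levels set the cells against all other cells of the library, which differ in class: none of the 25 and 7 cells was an LC. Within CD301blo cDC2s alone, Ccr7 was at 1286 against 3340 CPM, Fscn1 at 360 against 1325 CPM, H2-Aa at 7569 against 4418 CPM and Cd74 at 18310 against 10350 CPM in the 11 naive and 647 other cells. In the 5 papain and 1465 other CD301blo cells Ccr7 was at 1787 against 3285 CPM, Fscn1 at 1017 against 2169 CPM, H2-Aa at 5915 against 3033 CPM and Cd74 at 12570 against 7294 CPM. The cells with mitotic genes were thus lower in both maturation genes and higher in both MHC class II genes within this class too.

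These cells were also deep, with a median of 28590 UMIs against 13910 in the other naive cells and of 20970 against 14940 in the papain library, and doublets were not called. None of the 25 and 7 cells held a UMI of Cd3d, Cd3e, Cd3g or Cd79a. A UMI of any of the 11 T and B cell marker genes was found in 19 of the 25 naive cells (76.0%), against 54.3% of 105 other naive cells of at least their median depth, and in 4 of the 7 papain cells. Most of this was Ighm, the immunoglobulin mu heavy chain, with a UMI in 16 of the 25 (64.0%) against 29.5% of the 105, and in 4 of the 7 papain cells (57.1%) against 10.0% of 1265 as deep. Cd79b, a chain of the B cell receptor, had a UMI in 6 of the 25 (24.0%) against 10.5% of the 105, and any of the 6 T cell genes in 4 of the 25 (16.0%) against 26.7%, and in 0 of the 7 papain cells. The part of second cells and of free RNA in these counts was not tested. 

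Without these cells the Mki67-positive and Mki67-negative cells of naive CD301blo cDC2s had mitotic sums of 56.5 and 58.7 CPM, with 5 of 19 genes higher and 3 lower (6.97% and 13.9% of all genes). The 3 mitotic genes among those 5 passed only through the Mki67-positive cells. Of the 16 genes at 2 CPM in both groups 2 were higher and 3 lower, where 6.16% and 9.9% of such genes were. Naive CD301bint cells then had 36.3 and 36.3 CPM, with 1 of 17 genes higher and 2 lower (6.02% and 9.71%), and naive cDC1s 41.3 and 44.9 CPM, with 1 of 17 higher and 2 lower (5.98% and 19.5%). Naive CD301bhi cells had 24.5 and 34.0 CPM, with 0 of 17 higher and 3 lower (4.43% and 9.81%). Of the 16 in both groups 0 were higher and 2 lower (3.2% and 7.7% of such genes). In papain CD301blo cells the sums were 35 and 34.2 CPM, with 0 of 17 genes higher and 0 lower (5.87% and 9.69%), and in papain cDC1s 27.7 and 26.4 CPM, with 3 of 16 higher and 3 lower (17.9% and 24.4%). The cells left out were picked by their mitotic genes, so that smaller differences in the mitotic sum follow in part from the choice itself. The values describe how few cells carried the difference and are no test of the cells that remain.

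The number of mitotic genes per cell was also compared at equal depth. At 8392 UMIs per cell, a papain CD301bhi cell held on average 0.214 of the 21 mitotic genes when Mki67 was detected and 0.223 when it was not. In naive CD301bhi cells the means were 0.266 and 0.241 genes, and 0.192 and 0.240 without the cells of 5 or more mitotic genes. In naive CD301blo cells they were 1.51 and 0.369 genes, and 0.354 and 0.358 without such cells. In naive CD301bint cells they were 0.625 and 0.259, in naive cDC1s 0.906 and 0.300, in papain CD301blo cells 0.451 and 0.250 and in papain cDC1s 1.08 and 0.232 genes. Without such cells these means were, in the same order, 0.2647 and 0.2515, 0.2684 and 0.2944, 0.2137 and 0.2483, and 0.2163 and 0.219 genes. Both LC groups lay the other way, with 0.233 and 0.357 genes in the naive and 0.308 and 0.332 genes in the papain library. So did papain CD301bint cells, with 0.222 and 0.242 genes, and the papain CD301bhi cells above. Top2a was detected in 3.57% of Mki67-positive and 3.89% of Mki67-negative papain CD301bhi cells at this depth, and in 12% and 6.33% of the naive CD301blo cells. In the cells without a class that held Cd3e or Trac, the share with a Top2a UMI was 3.8% (naive) and 4.15% (papain) without thinning. These cells are no pure measure of background, since 2 of the 237 naive ones held 5 or more mitotic genes. The shares compared here were taken at unlike depths, and whether a share near 4% reflects expression in CD301bhi cells was not tested. The correlation over cells between the CPM of Mki67 and of the mitotic sum, a description over cells that share a library and its depth, was 0.68 in 658 naive CD301blo cells and -0.01 in the 647 left without the cells of 5 or more mitotic genes. It was 0.25 in 707 naive CD301bhi cells, -0.04 without 2 of them, and -0.02 in 2893 papain CD301bhi cells. The cells left out were picked by their mitotic genes, so the means and correlations without them are no test of the cells that remain.

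Within the cDC2s, Mki67 was higher at the upper end of the CD301b antibody signal than at its lower end in both libraries, and the mitotic sum was lower there. When the cDC2s of each library were ordered by that signal into 10 equal bins, Mki67 in the papain library went from 23.6 CPM in the lowest bin to 131 CPM in the ninth and 121 CPM in the tenth. The papain mitotic sum was 57.9 CPM in the first bin (40.9 without 4 cells of 5 or more mitotic genes) and 47.6 CPM in the second (31.2 without 1 such cell). From the third to the tenth papain bin it was at 27.3 to 34.0 CPM while Mki67 went from 60.7 to 121 CPM. In the naive library Mki67 was uneven over the lower bins, at 44.7, 61.8, 34.7, 39.9, 63.1, 42.1 and 55.7 CPM in the first to seventh, and then at 68.2, 76.6 and 80.4 CPM in the last 3. The naive mitotic sum went from 200 and 242 CPM in the first and second bins to 24.0 CPM in the tenth. Without the cells of 5 or more mitotic genes the naive mitotic sum still went from 72.2 CPM in the first to 20.9 CPM in the tenth bin. The median depth was 10540 and 15960 UMIs in the first and last papain bins and 13300 and 14930 UMIs in the first and last naive bins, and its part in these values was not tested. As Mki67 was chosen for being high in CD301bhi cDC2s, its values along the antibody signal are a description only.

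**Figure D5:**
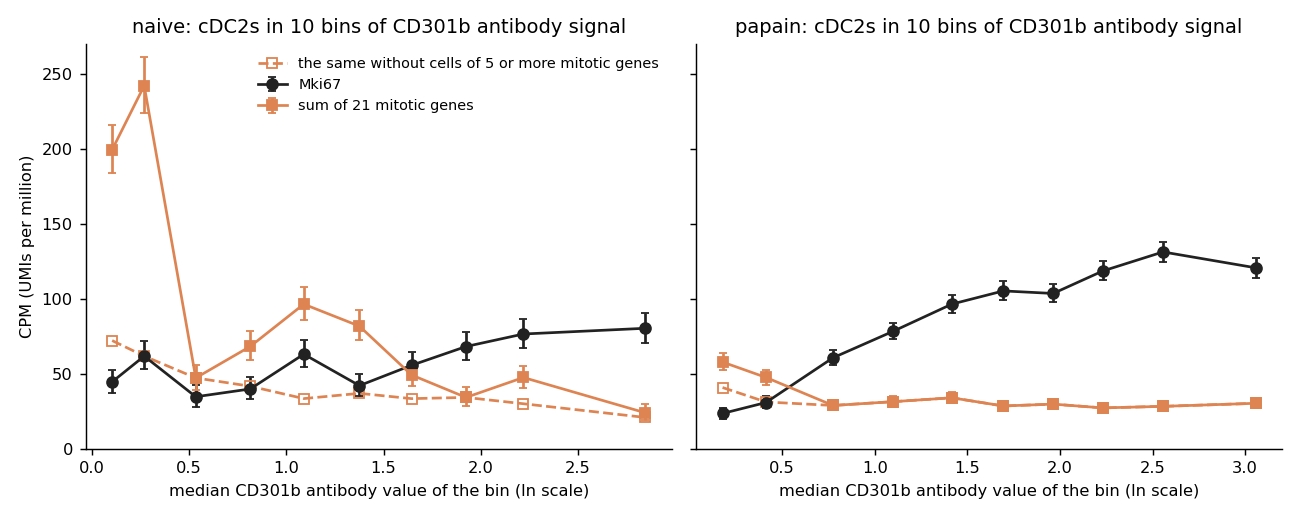
Levels (CPM) of Mki67 and of the sum of the 21 mitotic genes, with and without the cells of 5 or more mitotic genes, in 10 equal bins of cDC2s along the CD301b antibody value (ln scale) of the naive and papain libraries; points are levels over all cells of a bin and whiskers exact Poisson 95% intervals. Papain Mki67 goes from 23.6 to 121 CPM between the first and last bins, and the papain mitotic sum lies at 57.9 and 47.6 CPM in the first 2 bins and between 27.3 and 34.0 CPM in the others.

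Values are also given for the authors' mRNA clusters of the cDC2s, which were made from the expression values of these cells. Over the 7 naive clusters Mki67 was at 86.9, 53.8, 22.7, 15.8, 66.1, 24.2 and 33.0 CPM. The mitotic sum was at 51.0, 28.1, 46.9, 53.7, 299, 60.6 and 99.1 CPM. Without cells of 5 or more mitotic genes, naive cluster 5 was at 68.3 CPM (15 such cells), cluster 1, the highest in Mki67, at 26.1 CPM (3 cells) and cluster 6 at 30.7 CPM (1 cell). Over the 9 papain clusters Mki67 was at 131, 86.1, 94.3, 20.1, 116, 8.81, 15.6, 105 and 38.9 CPM, and the mitotic sum at 27.7, 27.6, 30.4, 33.7, 39.8, 35.6, 38.7, 23.6 and 87.7 CPM. Of the 3 papain clusters with the most Mki67, clusters 1 and 8 were among the 3 lowest in mitotic sum, and cluster 5 lay below only cluster 9, or at 32.7 CPM without 1 cell of 5 or more mitotic genes. Within clusters, the CPM of Mki67 was higher in CD301bhi than in CD301blo cells in 5 of 7 naive and 8 of 9 papain clusters, with intervals apart in 1 and 5 of them. Mki67 was chosen for being high in CD301bhi cells of these libraries, so these counts are a description and no independent support.

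Between the libraries, Mki67 was higher in papain than in naive CD301bhi cells (log2 ratio 0.70, 0.59 to 0.81), CD301bint cells (0.71, 0.58 to 0.85) and LCs (1.62, 1.30 to 1.97), and lower in CD301blo cells (-0.51, -0.70 to -0.33) and cDC1s (-0.46, -0.91 to -0.03). Without the cells of 5 or more mitotic genes, Mki67 in CD301blo cells was at 28.0 CPM in the naive and 30.0 CPM in the papain library. The lower papain level of that class thus rested on few cells. The cDC1s were then still lower in the papain library, at 15.25 against 20.6 CPM. In CD301bhi cells, of 17 genes that reached 2 CPM, 2 were higher in the papain library, Nusap1 (0.99) and Tyms (0.63), and 4 were lower, Cenpa (-1.34), Stmn1 (-0.80), Mcm2 (-0.73) and Tk1 (-0.65), where 11.3% of all genes tested were higher and 9.73% lower. In CD301bint cells 0 of 20 were higher and 11 lower (10.9% and 13.3% of all genes). Of the 18 in both groups, here both libraries, 9 were lower, as were 11.7% of such genes of any kind. In CD301blo cells 0 of 26 were higher and 19 lower (10.6% and 18.4%). As many as 9 of those 26 passed only through the naive cells and had to be lower, and of the 17 genes at 2 CPM in both libraries 10 were lower, as were 15.8% of such genes of any kind. Without the cells of 5 or more mitotic genes 0 of 17 in CD301blo cells were higher and 4 lower, with 10.9% of all genes higher and 17.7% lower. In CD301bint cells without such cells 3 of 18 were higher and 3 lower (11.3% and 12.9%). Of the 17 in both libraries 2 were higher and 3 lower (10.0% and 11.4% of such genes). In CD301bhi cells without such cells 3 of 17 were higher and 3 lower (11.3% and 9.69%). In cDC1s, all cells used, 2 of 21 were higher and 4 lower (9.77% and 21%). Of the 20 in both libraries 2 were higher and 3 lower (9.96% and 14.4% of such genes). In LCs 2 of 20 were higher and 6 lower (14.9% and 12.6%). Of the 19 in both libraries 2 were higher and 5 lower (12.95% and 11.7% of such genes). The shares of higher genes in CD301bhi cells and LCs (2 of 17 and 2 of 20) were close to those of all genes. In LCs, the class where Mki67 differed most, the mitotic sum was 44.1 against 50.8 CPM and the S phase sum 209 against 249 CPM.

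The remainder of the cell cycle was followed by a list of 96 other genes, of which 93 are in the files. In the papain contrast of CD301bhi cDC2s with other DCs, 52 reached 2 CPM, of which 1 was higher and 4 lower (1 and 3 of the 51 in both groups), with a median log2 ratio of -0.02. In the naive contrast 63 reached it, of which 2 were higher and 23 lower, with a median of -0.32. Of the 56 at 2 CPM in both naive groups 2 were higher and 17 lower, with a median of -0.22. The background shares are those of the same contrasts above. The highest papain ratios were those of Spc25, a kinetochore subunit, with 8.05 against 5.29 CPM (log2 ratio 0.61), Cdkn1a, the p21 inhibitor of cyclin kinases, with 1089 against 802 CPM (0.44), and Cdt1, a replication licensing factor, with 8.54 against 6.84 CPM (0.32). In the naive library Cdkn1a was at 1164 against 745 CPM (0.64). The lowest were those of Ccnd2, a D-type cyclin of G1, with 28.0 against 54.6 CPM (-0.96), Cdc25a, the phosphatase that activates cyclin kinases, with 1.76 against 2.79 CPM (-0.66), and Dut, which breaks down dUTP, with 8.60 against 13.5 CPM (-0.64). Cdkn1a, an inhibitor of the cycle, thus lay on the same side of this contrast as Mki67 in both libraries. Between Mki67-positive and Mki67-negative cells, 1 of 52 genes of the list was higher and 1 lower in papain CD301bhi cells, where 1.7% and 1.83% of all genes were. Of the 50 in both groups 1 was higher and 0 lower, where 1.33% and 1.32% of such genes of any kind were. In naive CD301blo cells 45 of 70 were higher and 3 lower (9.29% and 11.2% of all genes). The 12 genes under 2 CPM in the Mki67-negative cells were all among the higher ones. Of the 58 in both groups 33 were higher and 3 lower, where 8.10% and 7.51% of such genes of any kind were. Without the cells of 5 or more mitotic genes 11 of 62 were higher and 6 lower (6.97% and 13.9%). Of the 57 in both groups 9 were higher and 5 lower (6.16% and 9.9% of such genes).

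Genes outside the 35 whose pattern was most like that of Mki67 were named by 2 rules. Among 1315 genes of at least 50 CPM in papain CD301bhi cells that were also higher in naive Mki67-positive cells, the highest log2 ratio of Mki67-positive against Mki67-negative papain CD301bhi cells was that of Bcl2l1, which encodes the survival protein Bcl-xL, with 161 against 64.4 CPM (log2 ratio 1.32, and 1.11 in the naive library). Further genes of this kind were the growth factor gene Csf1 (1.21 and 0.88), Tnfsf9, the ligand of 4-1BB (1.20 and 1.20), the chemokine Cxcl1 (1.15 and 0.89) and Rasgef1b (1.12 and 0.63). The chemokine Cxcl2 (1.12 and 1.15), the immediate early gene Egr1 (1.11 and 0.68), the chemokine Ccl17 with 1064 against 503 CPM (1.08 and 1.30) and Plat, the tissue plasminogen activator (0.94 and 1.03), were also among the 10. Over the 10 groups of library and class, the genes with the highest Pearson r with Mki67 on the log2 scale were Nckap1l (0.95), Rapgef6 (0.95), Prdx1 (0.94), Ehd1 (0.94) and Acp2 (0.94) among 6048 candidates. Among the 34 genes, Mcm3 (r = 0.89) and Mcm5 (0.62) had the highest and Cdk1 (-0.78), Mcm4 (-0.66), Hmgb2 (-0.60) and Top2a (-0.55) the lowest r over these groups, with -0.43 for the mitotic and 0.40 for the S phase sum. These groups share 2 libraries and are described only.

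On chromosome 7, where Mki67 lies at chr7:135689784-135716450 (GRCm38.p6, minus strand), 11 annotated genes lie within 300 kb of it, of which 2 are among the listed genes. Ptpre, a tyrosine phosphatase whose gene ends 3489 bases from Mki67, was at 19.4 against 14.7 CPM in CD301bhi cDC2s and other DCs of the naive library (log2 ratio 0.40, 0.17 to 0.63) and at 13 against 7.81 CPM in the papain library (0.73, 0.56 to 0.90). In Mki67-positive and Mki67-negative CD301bhi cells Ptpre was at 24.4 and 15.7 CPM in the naive and at 17.4 and 5.90 CPM in the papain library, but its highest group was naive CD301blo (26.4 CPM). The non-coding gene 5830432E09Rik was at 0 to 1.08 CPM in the 10 groups.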

How the data were processed

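Single-cell libraries of 1 naive and 1 papain sample were analysed. Per the submitters' processing notes, Cell Ranger 3.0.1 and Partek were used with the mm10 build. The authors deposited expression as log2 values of CPM plus 1, per cell, antibody signal as natural log values, and the number of expressed genes as counts. The CPM values were divided by the value of 1 UMI in each cell, and 100% of the values up to 50 UMIs came out whole within 0.02 UMIs. The recovered UMIs were summed over the cells of the authors' antibody classes, without filtering cells or calling doublets. Depth was 3637 to 50632 UMIs per naive and 2682 to 56723 per papain cell with a class, and the largest mitochondrial shares were 11.1% in both libraries. Depth sets the width of each interval.

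The text names all 35 genes by role (Mki67, 21 mitotic, 11 S phase, and Hmgb2 and Stmn1), the 3 highest and 3 lowest of a further list of 96 cycle genes in the papain contrast of CD301bhi cDC2s, the 10 genes most like Mki67 in single cells (1 is not reported here), the 5 most like it over 10 groups, and its neighbours within 300 kb. Marker lists covered T, B, NK and plasma cells, monocytes and macrophages, plasmacytoid DCs, neutrophils, cDC1s, cDC2s, LCs and migratory DCs. The genes and lists were chosen with earlier results of these data known. Python 3.11.15, numpy 2.4.6, scipy 1.17.1, pandas 2.3.3 and matplotlib 3.10.9 were used. The ratios and intervals were tested on simulated Poisson counts without variation between cells. That simulation does not cover genes whose UMIs are concentrated in few cells. Alternatives changed the comparison group, weights, pseudocount, scaling, floor, cell filters and fold.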

Additional observations from a re-analysis of the deposited data

Results flagged for a closer look

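The papain against naive log2 ratio of Mki67 had opposite signs in different classes: 0.70 in CD301bhi and 0.71 in CD301bint cDC2s and 1.62 in LCs, but -0.51 in CD301blo cDC2s and -0.46 in cDC1s. The negative sign in CD301blo cDC2s rested on few cells. Without the cells of 5 or more mitotic genes, Mki67 was at 28.0 CPM in naive and 30.0 CPM in papain CD301blo cDC2s. With 1 library per condition the difference between classes was not tested, and node site moves with immunization.

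The log2 ratio of the mitotic sum between Mki67-positive and Mki67-negative cells was 0.038 in naive CD301bhi and 2.96 in naive CD301blo cDC2s, and -0.16 and 1.59 in the papain library. The values of CD301blo cells rest on 11 naive and 5 papain cells of 5 or more mitotic genes: without them the sums were 56.5 against 58.7 CPM and 35 against 34.2 CPM. This difference was not tested either.

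Cells without an antibody class, which enter none of the comparisons between classes or libraries and are only set beside them, also held the genes. Mki67 was at 46.7 CPM in the 429 naive and 16.7 CPM in the 290 papain cells, and Cenpa at 41.9 and 57.2 CPM, where its highest level in any class was 31.4 CPM. In those of them that held Cd3e or Trac, Cenpa was at 109 and 69.0 CPM, with a UMI in 50.6% of the naive and 34.9% of the papain cells.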

How the results depend on the processing

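No paired analysis was possible because each condition has 1 library. Over 82 alternatives of 11 results, 66 stayed within the counting interval or within 1.5 times the main count, and the sign changed only for 2 medians close to 0. One is the papain median given below, and the other, of Mki67-positive against Mki67-negative naive CD301bhi cells (0.02), was -0.12 without cells of 5 or more mitotic genes, -0.06 at a floor of 10 CPM, -0.03 without the deepest 5% of cells and -0.0044 with the filter on detected genes and mitochondrial UMIs. The log2 ratio of Mki67 in CD301bhi cDC2s against other DCs of the naive library (0.97) was 0.66 against CD301blo cells alone, 1.16 as a mean over cells, 1.13 without cells holding T or B cell markers, 1.17 without the deepest 5% of cells and 1.25 without the cells of 5 or more mitotic genes, an alternative chosen after seeing the data. In the papain library (1.03) it was 1.88 against CD301blo cells alone, 1.37 with equal weights of the other classes and 1.14 as a mean over cells. The median log2 ratio of the other genes was -1.42 against CD301blo cells alone in the naive library (-0.71), and 0.12 over 7 genes at a floor of 10 CPM in the papain library (-0.11). The naive share of cells with 5 or more mitotic genes (0.822%) was 0.271% without cells holding T or B cell markers, 0.415% without the deepest 5% and 2.10% at 3 or more genes, where the papain share (0.0958%) was 1.63%. The 601 genes called in the papain contrast became 186 at 2-fold and 184 at a floor of 10 CPM, both by construction. For the other changes the cause was not tested. Depth limits the low genes most: Plk1 rested on 3 UMIs or fewer in 7 of the 10 groups and Rrm2 in 5.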

Other observations

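Among naive cells without a class, 5 of 429 held UMIs of 5 or more mitotic genes (1.17%, 0.380 to 2.70%), and 1 of 290 in the papain library (0.345%). The 192 naive cells without a class and without a Cd3e or Trac UMI were deep, with a median of 27040 UMIs, and held Mki67 at 62.2 CPM (55.5 to 69.6), Top2a at 16.9 CPM and Tk1 at 106 CPM. The 237 that held Cd3e or Trac had a median of 7626 UMIs and held Mki67 at 13.4 CPM, Top2a at 7.75 CPM and Tk1 at 28.0 CPM.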
